A study of Rattus norvegicus with 15 samples.

Results

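Nuclear receptors are transcription factors, many of which are switched on or off by small lipid-soluble ligands such as steroids, thyroid hormone, retinoids and vitamin D. The 38 receptor genes described here are those outside the oestrogen receptors, named by symbol in a fixed list. Of these, 35 of the 22468 genes in the deposited table carried a listed symbol, and 31 of the 35 had enough counts for the tests across groups. Rorb, Nr1h4 and Nr0b1 were not analysed here. Esrrb, Nr1i2, Hnf4g and Nr2e3 were in the table but were too low for the tests.

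The libraries came from bone of female Sprague-Dawley rats, as 15 bulk poly(A) RNA libraries with 3 in each of 5 groups. Blank rats had no treatment. In Model rats the ovaries, which make most oestrogen, had been removed (ovariectomized), and the condition label is osteoporosis. The SYT, YJT and YJZYT groups were also ovariectomized, and the labels give their further conditions only by these names. The series design text names ZGZTC as a treatment without saying which group received it. As the labels describe no sham operation, effects of the operation itself and of lacking ovaries cannot be told apart. Ages are not in the labels, nor is it said that replicates are separate animals, and every p-value therefore reflects the spread among the 3 libraries of a group, which could be technical. Libraries are named by group and replicate, so that Model2 is the second Model library.

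In the classical scheme a receptor binds DNA at short half-sites, often as a partner of a retinoid X receptor, holds corepressors in one state and recruits coactivators in the other. In bone, the vitamin D receptor, the glucocorticoid receptor and the retinoid and thyroid hormone receptors act in osteoblasts, osteoclasts and cartilage. The orphan receptors of the list have no settled natural ligand or act without one. Oestrogen-related receptors, despite their name, do not bind oestrogen and are known for control of mitochondrial genes.

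Library totals ran from 64472700 to 74255667 counts. Bone markers were present in every library: Col1a1, the main collagen chain of bone, ran from 336.6 to 10570 FPKM (a level corrected for transcript length and library size) and Bglap, which encodes osteocalcin, from 436.9 to 4642. Markers of other tissues were present too and varied between libraries. The score of 13 osteoblast and osteocyte markers, a median log2 deviation from the mean of all libraries, was lowest in YJT3 (-2.52) and YJZYT3 (-1.57) and highest in SYT3 (1.65). The skeletal muscle score was lowest in YJZYT2 (-5.59) and highest in Blank3 (2.39). Slopes past the threshold, many of the named fold changes and some counts of direction are given with and without single libraries. In bulk tissue, fewer cells of a type and less RNA per cell cannot be told apart.

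Ordered per length by mean FPKM over all 15 libraries, 5 receptors reached 10 FPKM, 14 lay between 1 and 10, 9 between 0.1 and 1 and 7 under 0.1. The 5 highest were Nr1h2 (20.2), an oxysterol receptor also called LXR beta, Nr3c1 (18.2), the glucocorticoid receptor, Vdr (13.4), the vitamin D receptor, Esrra (12.9), an orphan receptor of mitochondrial genes, and Thra (10.6), a thyroid hormone receptor. Next came Rara (9.95), Rxra (9.10), Rxrb (8.70), Nr2f6 (7.45), Nr2c2 (6.92), Rarg (6.57), Nr1h3 (5.17), Nr2c1 (4.04) and Ppard (2.00). Nr2f2, Nr0b2, Nr1i3, Thrb and Nr4a2 lay between 1.09 and 1.89 FPKM. Nr3c2 (0.603), Rxrg (0.548), Rarb (0.540), Rora (0.508), Nr4a3 (0.430), Ppara (0.217), Esrrg (0.194), Nr6a1 (0.175) and Nr2f1 (0.138) followed. The last 7 were Nr5a2 (0.0658), Nr5a1 (0.0399), Esrrb (0.0197), Nr1i2 (0.0195), Hnf4a (0.0107), Hnf4g (0.00859) and Nr2e3 (0.00207). All of these except Esrrb are best known from steroid-making glands, liver, gut and eye. A count above 0 was found in all 15 libraries for 26 of the 35 genes.

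Many neighbours in this order could not be ranked. Nr3c1 lay above Vdr in 13 of 15 libraries, but Vdr lay above Esrra in only 7, Rxra above Rxrb in 7, Nr2f6 above Nr2c2 in 7 and Nr2c2 above Rarg in 7. Clearer steps separated Nr2c1 from Ppard and Nr4a2 from Nr3c2, where the first gene was the higher in all 15 libraries.

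**Figure D1:**
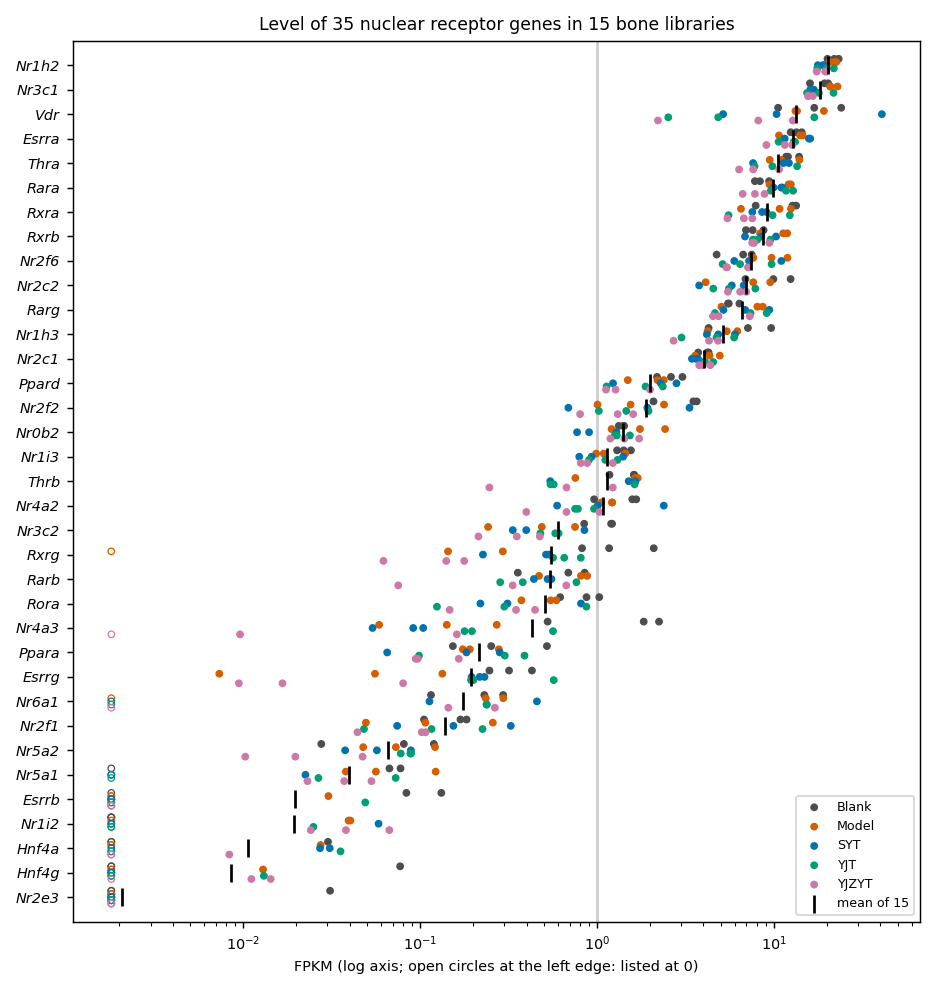
FPKM of the 35 receptor genes (log axis), with 1 point per library coloured by group and a tick at the mean of 15 libraries; open circles mark libraries listed at 0. Nr1h2 and Nr3c1 sit in narrow bands near 20 FPKM, while Vdr spreads from 2.21 to 40.8.

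Within subfamilies, 1 gene usually carried most of the summed FPKM. Nr3c1 made up a median of 97.2% of the glucocorticoid and mineralocorticoid receptor pair over the 15 libraries (92.9% to 99.0%), with Nr3c2, the mineralocorticoid receptor, as the rest. Esrra made up 98.6% of the oestrogen-related receptors (95.8% to 99.9%). Ppard made up 90.9% of its pair with Ppara (82.8% to 97.2%), both fatty acid receptors. Thra made up 89.7% of the thyroid hormone receptors (86.6% to 96.3%), and Nr1h2 made up 80.6% of the oxysterol receptors (67.6% to 87.9%). Retinoic acid receptors were shared between Rara (58.2%, 52.9% to 65.7%) and Rarg (38.2%, 31.7% to 44.5%), with Rarb at 2.61%. Retinoid X receptors, the common dimer partners, were split evenly between Rxrb (50.1%, 31% to 64.6%) and Rxra (48.5%, 35.4% to 59.6%), with Rxrg at 3.05% (0% to 9.34%). Rxrb exceeded Rxra in 8 of 15 libraries, so the pair had no fixed order, whereas Rara exceeded Rarg and Rarg exceeded Rarb in all 15.

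The steroid and vitamin receptors differed in how steady they were. Levels of Nr3c1 were 20.3, 16 and 19.3 FPKM in Blank, 20.8, 22.9 and 20.9 in Model, 16.3, 16.8 and 16.1 in SYT, 17.95, 15.4 and 21.7 in YJT, and 16.6, 15.7 and 15.6 in YJZYT. On this scale all 3 Model libraries lay above every Blank, SYT and YJZYT library and YJT3 lay within the Model range, while in the scaled counts used for the contrasts SYT overlapped with Model too, and the 15 values spanned 1.49-fold. The libraries had Vdr at 10.6, 24.04 and 16.9 FPKM in Blank, 13.5, 13.2 and 19.2 in Model, 5.17, 10.4 and 40.8 in SYT, 16.9, 4.85 and 2.53 in YJT, and 12.8, 8.17 and 2.21 in YJZYT. SYT3 was the highest and YJZYT3 the lowest, an 18.4-fold span. Blank, SYT and YJT overlapped with Model, and YJZYT lay below Model on this scale but overlapped with it in the scaled counts used for the contrasts. Thra was at 11.7, 12.02 and 13.9 FPKM in Blank, 13.95, 9.48 and 11.01 in Model, 7.63, 11.3 and 12.2 in SYT, 13.5, 7.78 and 9.81 in YJT, and 10.7, 7.64 and 6.36 in YJZYT. These values spanned 2.19-fold and all groups overlapped with Model.

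Among the lipid and retinoid sensors, Rxra, Nr1h3 and Ppard overlapped with Model in every group in FPKM. Nr1h2 did not: Model was at 20.65 to 22.54 FPKM, SYT at 17.73 to 19.12 and YJZYT at 17.47 to 19.73. In the scaled counts used for the contrasts, Nr1h2 in SYT and YJZYT overlapped with Model. Rara was at 7.815 to 9.403 FPKM in Blank and 9.447 to 12.47 in Model, without overlap. Levels of Rxra were 12.8, 7.895 and 13.4 FPKM in Blank, 12.5, 6.52 and 10.8 in Model, 7.56, 9.09 and 8.58 in SYT, 9.83, 5.55 and 12.3 in YJT, and 7.56, 5.46 and 6.77 in YJZYT. Values ran from 5.46 to 13.4 FPKM, with every group overlapping Model. The libraries had Nr1h3 at 7.14, 4.28 and 9.66 FPKM in Blank, 5.42, 4.22 and 6.22 in Model, 4.85, 4.18 and 6.03 in SYT, 4.74, 3.01 and 5.97 in YJT, and 4.303, 4.83 and 2.71 in YJZYT. Nr1h3 is LXR alpha, which controls cholesterol efflux genes, and Blank3 stood highest. Ppard was at 2.62, 2.19 and 3.04 FPKM in Blank, 2.2, 1.495 and 2.39 in Model, 1.23, 2.296 and 2.82 in SYT, 2.36, 1.14 and 1.88 in YJT, and 1.997, 1.28 and 1.13 in YJZYT. Blank was between 2.19 and 3.04 FPKM, and each of the other groups reached lower. Levels of Rora were 0.6199, 0.873 and 1.03 FPKM in Blank, 0.548, 0.374 and 0.5897 in Model, 0.312, 0.2195 and 0.813 in SYT, 0.872, 0.125 and 0.2997 in YJT, and 0.447, 0.349 and 0.147 in YJZYT. Rora, a receptor known from cartilage, cerebellum and the circadian clock, had its 3 Blank values above all 3 Model values.

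No member passed the adjusted threshold of 0.05 (Benjamini-Hochberg over all 17657 tested genes, edgeR's quasi-likelihood test) in any of the 8 tests across groups, which were the 7 contrasts and 1 test of any difference. Such calls were rare over all genes too: 0.0227% in Model against Blank, 0.0227% in the test of any difference, and 0% in each of SYT, YJT and YJZYT against Model and the 3 contrasts among them. DESeq2 called more, among members and among all genes with an adjusted p. It called 1 member in Model against Blank (Rxrg, 3.12% of the members it tested, against 1.62% of all genes). It called Esrrg and Rara in YJZYT against SYT (6.25%, against 1.51%) and in YJZYT against YJT (5.88%, against 2.1%). In its test of any difference 4 members passed, Esrrg, Rxrg, Nr4a3 and Rara (12.5%, against 3.32%). DESeq2 called 0 members in SYT (against 0.135% of all genes), YJT (0.479%) and YJZYT (0.332%) against Model and in YJT against SYT (0.0356%). Limma on log2(FPKM + 1), which takes genes at 1 FPKM in 3 libraries, called 0 in all 8 tests. Rxrg, Nr4a3 and Esrrg fell short of that level, so limma did not test them. Values below are therefore given with their unadjusted p as a description.

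Model against Blank asks which receptors differ in bone of ovariectomized rats. At an unadjusted p under 0.05, 4 of 31 members (12.9%) were lower in Model, Rxrg, Nr4a3, Esrrg and Nr3c2, where 4.23% of all tested genes were. In the other direction there was 1 member, Rara (3.23%), against 3.96% of all genes. Groups did not overlap, with Model lower, for 5 members, those 4 and Rora (16.1%, against 7.99% of all genes), and with Model higher for Nr2f6, Nr3c1 and Rara (9.68%, against 7.69%). The median log2 fold change was -0.18 over the 31 members and 0.02 over all genes, with 21 members lower and 10 higher. Over all genes 48.3% were lower.

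Values per library for contrasts are CPM, which are counts put on a common library size with TMM scaling factors and are not corrected for gene length. The libraries had Rxrg at 2.595, 2.01 and 4.57 CPM in Blank, 0.6602, 0 and 0.338 in Model, 0.697, 1.31 and 1.402 in SYT, 2.05, 1.599 and 1.48 in YJT, and 0.446, 0.165 and 0.383 in YJZYT. Rxrg, the retinoid X receptor form known from skeletal muscle and brain, had all 3 Blank values above all 3 Model values. It went from 3.06 ± 1.34 (SD, n = 3) CPM in Blank to 0.333 ± 0.330 in Model, a log2 fold change of -3.19 (SE 0.92, unadjusted p = 0.0042, edgeR adjusted p = 0.350; 0.00938 with DESeq2). Nr4a3 was at 8.402, 2.66 and 10.1 CPM in Blank, 0.6602, 0.295 and 1.26 in Model, 0.587, 0.295 and 0.561 in SYT, 2.94, 1.15 and 0.842 in YJT, and 0.817, 0 and 0.0666 in YJZYT. Nr4a3, an orphan receptor induced within minutes by many stimuli, had Blank2 well below the other 2 Blank libraries but still above every Model library. Its log2 fold change was -3.25 (SE 1.10, edgeR adjusted p = 0.422), from 7.06 ± 3.90 to 0.737 ± 0.485 CPM (SD, n = 3).

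Levels of Esrrg were 1.78, 1.52 and 2.36 CPM in Blank, 0.309, 0.0562 and 0.757 in Model, 1.49, 1.38 and 1.51 in SYT, 3.602, 1.43 and 1.11 in YJT, and 0.4904, 0.1101 and 0.0666 in YJZYT. Esrrg, the oestrogen-related receptor of oxidative muscle and heart, had a mean of 1.88 ± 0.430 CPM over the 3 Blank libraries and 0.374 ± 0.355 over the 3 Model libraries (SD, n = 3), with no overlap. The log2 fold change was -2.33 (SE 0.83, edgeR adjusted p = 0.446). The libraries had Nr3c2 at 2.33, 3.67 and 3.25 CPM in Blank, 2.07, 0.716 and 1.35 in Model, 1.27, 1.26 and 2.73 in SYT, 1.897, 1.68 and 1.63 in YJT, and 1.43, 1.09 and 0.699 in YJZYT. Nr3c2 was at least 2.33 CPM in the 3 Blank libraries, higher than in any Model library. Its log2 fold change was -1.16 (SE 0.44, edgeR adjusted p = 0.481). Rara was at 28.1, 33.02 and 33.3 CPM in Blank, 43.6, 36.6 and 45.4 in Model, 48.9, 45.3 and 47.1 in SYT, 47.9, 44.2 and 47.2 in YJT, and 34.9, 26.8 and 33.5 in YJZYT. Rara, which binds retinoic acid, was the exception in direction, with Blank at most 33.3 CPM and Model at least 36.6. Its log2 fold change was 0.41 (SE 0.14, edgeR adjusted p = 0.407).

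**Figure D2:**
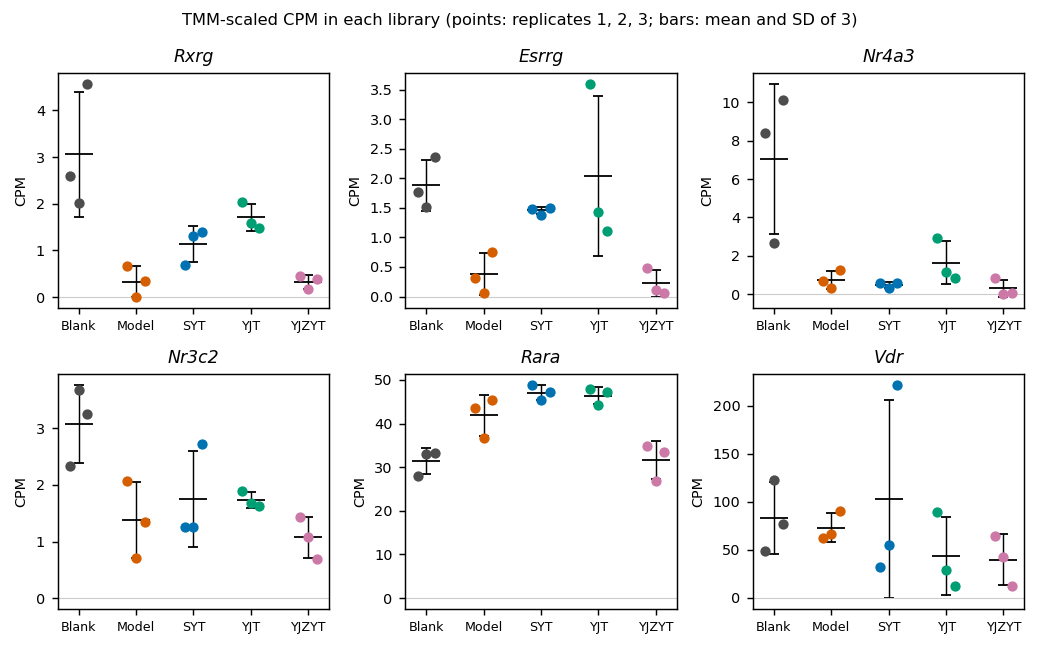
TMM-scaled CPM of 6 receptors in each library (points, 3 per group) with the mean and SD of 3. Rxrg, Esrrg and Nr4a3 are lower in Model than in Blank without overlap, Rara is lower in YJZYT than in SYT and YJT without overlap, and Vdr spreads widely within SYT and YJT.

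Skeletal muscle markers moved the same way as Rxrg, Nr4a3 and Esrrg. All 13 of the 13 muscle markers were lower in Model than in Blank (median log2 fold change -3.02), 12 of them at an unadjusted p under 0.05 and 0 past the adjusted threshold. Their summed level ran from 3178 to 4875 FPKM in Blank, 200 to 634 in Model, 455 to 2633 in SYT, 2043 to 2346 in YJT and 28.2 to 547 in YJZYT, and none was at 0 in any library. Of 12 adipocyte markers, 11 were also lower in Model, with summed levels of 417 to 597 FPKM in Blank and 155 to 257 in Model; Lep and Plin4 were at 0 in at least 1 library. Erythroid (11 of 11, median -0.71) and endothelial markers (9 of 9, -0.72) also lay lower in Model, and B cell markers higher (12 of 12, median 0.52, 4 at an unadjusted p under 0.05). The part of these cell types in the result was not tested. With the muscle and osteoblast scores as covariates, the log2 fold change in Model against Blank was -1.89 for Rxrg (edgeR adjusted p = 0.766), -1.81 for Nr4a3 (0.859), -1.86 for Esrrg (0.733), -0.84 for Nr3c2 (0.805) and 0.59 for Rara (0.664). The muscle score did not overlap between Blank (1.708 to 2.392) and Model (-2.424 to -0.735). Group and score are therefore hard to separate in that fit, and its fold changes do not measure the part of muscle. In that fit 17 of the 31 members were lower, where 50.5% of all genes were. Without the scores it was 21, where 48.3% of all genes were.

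SYT against Model had 1 member higher at an unadjusted p under 0.05, Esrrg (3.23%, against 1.98% of all genes), and 0 lower (against 1.18%). The fold change was above 0 for 21 of the 31 members and below 0 for 10 (median 0.08, against 0.02 over all genes). Over all genes 46.7% were below 0. This direction turned with the scaling. Without scaling factors, a setting chosen after seeing the data, 20 of the 31 members were below 0 in SYT. The median of all genes was then -0.22 in SYT, -0.16 in YJT and -0.22 in YJZYT against Model. Without SYT3, 18 of 32 tested members were below 0 in SYT (median -0.055), where 50% of all genes were. With the muscle and osteoblast scores as covariates this was 18 of 31 (median -0.03), where 49.9% of all genes were. Groups did not overlap with SYT higher for Esrrg and Rxrg (6.45%, against 3.24%) and with SYT lower for Nr5a1 (3.23%, against 2.65%). Esrrg was at 1.46 ± 0.0659 CPM in SYT (SD, n = 3; log2 fold change 1.96, SE 0.82, edgeR adjusted p = 1). Rxrg was at 1.14 ± 0.382 (1.77, SE 0.88, edgeR adjusted p = 1). Levels of Esrra were 27.9, 35.5 and 29.7 CPM in Blank, 24.01, 34.01 and 33.01 in Model, 49.1, 29.6 and 41.5 in SYT, 33.1, 30.5 and 30.2 in YJT, and 31.2, 28.9 and 24.3 in YJZYT. Esrra had SYT1 and SYT3 above every Model library and SYT2 among them (log2 fold change 0.40, SE 0.20, edgeR adjusted p = 1). Nr5a1, a receptor of steroid-making glands, is not read further: its highest library held 20 counts.

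In YJT against Model, Esrrg and Rxrg were again the 2 members higher at an unadjusted p under 0.05 (6.45%, against 4.12% of all genes), and 0 were lower (against 2.46%). The same 2 genes were those without overlap, with YJT higher (6.45%, against 6.83%), and 0 had YJT lower without overlap (against 4.92%). Esrrg was at 2.05 ± 1.36 CPM in YJT (SD, n = 3; log2 fold change 2.45, SE 0.83, edgeR adjusted p = 0.746), with YJT1 far above YJT2 and YJT3. Rxrg was at 1.71 ± 0.297 CPM (2.35, SE 0.90, edgeR adjusted p = 0.746) with similar values in all 3 libraries. Nr4a3 in YJT overlapped Model (1.15, SE 1.04, edgeR adjusted p = 0.856). SYT, YJT and YJZYT against Model share the Model libraries, and the muscle markers were higher than in Model in 13 of 13 for SYT (median 2.12) and 13 of 13 for YJT (2.47). In YJT against Model the fold change was also below 0 for 13 of 13 osteoblast and osteocyte markers (median -0.92), 9 of 10 osteoclast markers (-1.05) and 12 of 12 B cell markers (5 at an unadjusted p under 0.05), and above 0 for 11 of 11 erythroid markers (0.97). With the 2 scores as covariates, Rxrg was at 1.08 in SYT against Model and 1.31 in YJT against Model, and Esrrg at 1.74 and 2.55. The muscle score of YJT (1.279 to 1.442) did not overlap with that of Model, so group and score are hard to separate there too.

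In YJZYT against Model nearly all members lay on the low side. The fold change was below 0 for 30 of 31 members, with a median of -0.36, where it was below 0 for 57.6% of all genes with a median of -0.07. At an unadjusted p under 0.05, 2 members were lower, Rara and Nr3c1 (6.45%, against 2.85% of all genes), and 0 were higher (against 4.44%). These 2 were also the members without overlap and YJZYT lower (6.45%, against 5.57%), and 0 had YJZYT higher without overlap (against 7.35%). The median of members beyond that of all genes was -0.29 with TMM factors, -0.30 with RLE factors and -0.29 without scaling factors, and the number of members below 0 was 29 with RLE factors and 31 without scaling. Leaving out 1 library left 23 to 30 members below 0, with 23 when Model3 was left out.

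Rara was at 41.9 ± 4.66 CPM in Model and 31.7 ± 4.34 in YJZYT (SD, n = 3; log2 fold change -0.40, SE 0.14, edgeR adjusted p = 0.638). The libraries had Nr3c1 at 107, 92.97 and 101 CPM in Blank, 110, 130 and 112 in Model, 117, 102 and 99.4 in SYT, 108, 104 and 117 in YJT, and 96.1, 92.6 and 98.2 in YJZYT. Nr3c1 was at most 98.2 CPM in the 3 YJZYT libraries and at least 110 in the 3 Model libraries (log2 fold change -0.29, SE 0.12, edgeR adjusted p = 0.649). Nr5a2 was at 0.618, 0.159 and 0.411 CPM in Blank, 0.379, 0.267 and 0.635 in Model, 0.275, 0.342 and 0.531 in SYT, 0.4595, 0.583 and 0.468 in YJT, and 0.119, 0.275 and 0.0666 in YJZYT. Nr5a2, known from liver and ovary, overlapped between the groups (-1.46, SE 0.68, edgeR adjusted p = 0.681) and never exceeded 47 counts in a library. Nr2c1 (0.06), an orphan receptor, was the 1 member above 0, Rxrg was at -0.01, and Vdr at -0.87 (SE 0.79). In the same contrast the 11 erythroid markers were all higher (median 1.395; summed level 2387 to 4477 FPKM in YJZYT and 888 to 2192 in Model, none at 0 in any library), 9 of them at an unadjusted p under 0.05. The fold change was below 0 for 12 of 13 osteoblast and osteocyte markers (median -0.58), 12 of 13 muscle markers (-0.73), 9 of 9 macrophage, 12 of 12 B cell and 8 of 9 endothelial markers. With the muscle and osteoblast scores as covariates 25 of 31 members were below 0, where 58.6% of all genes were, and the part of the other markers was not tested.

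**Figure D3:**
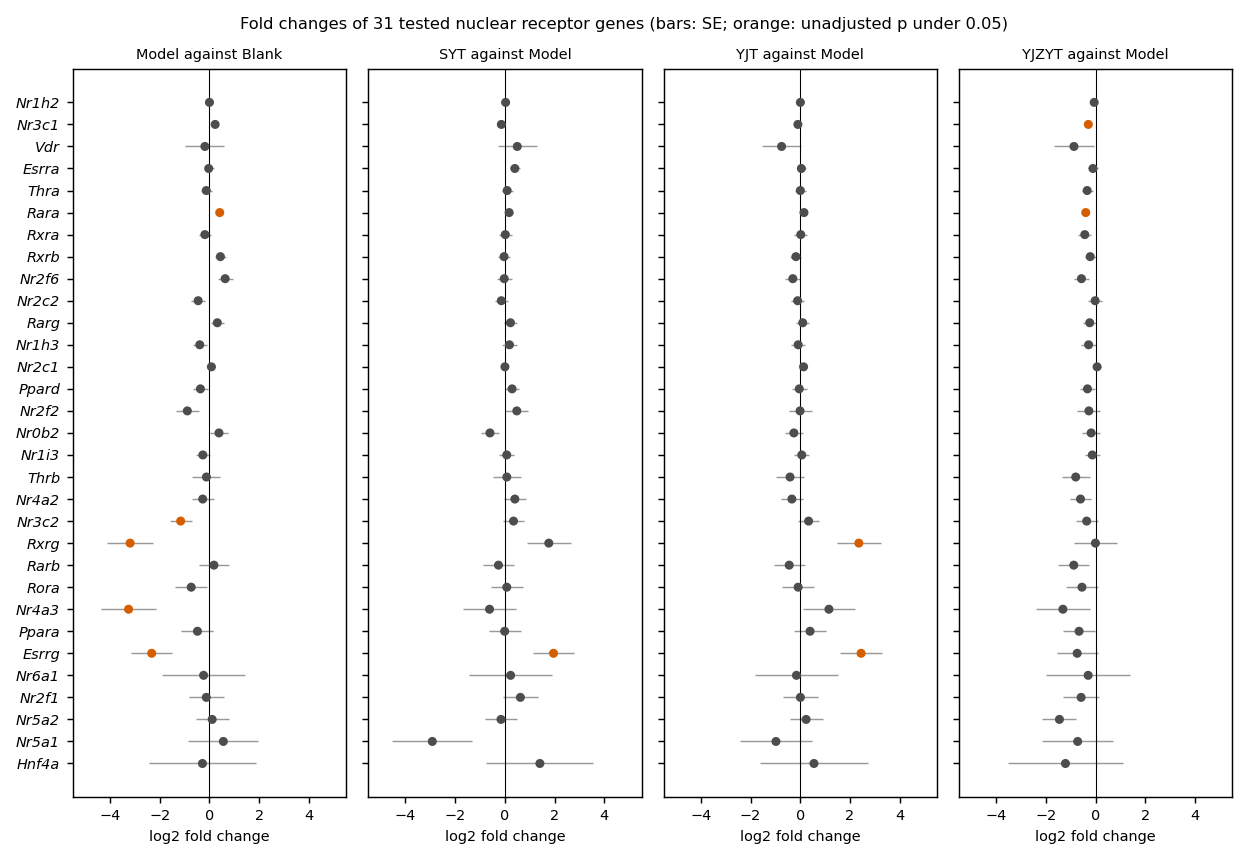
Log2 fold change with SE of the 31 tested members, ordered by mean FPKM, in the 4 contrasts with Model; orange points have an unadjusted p under 0.05. Rxrg, Nr4a3 and Esrrg lie furthest left in Model against Blank, Esrrg and Rxrg lie right in SYT and YJT against Model, and 30 of 31 points lie left of 0 in YJZYT against Model.

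Among the 3 further ovariectomized groups, YJT and SYT had 0 members at an unadjusted p under 0.05 (against 3.05% of all genes). YJZYT against SYT had 4 lower, Rara, Esrrg, Esrra and Nr4a2 (12.9%, against 6.21%), and YJZYT against YJT had 5 lower, Rara, Esrrg, Rxrg, Nr5a2 and Nr4a3 (16.1%, against 5.19%). Rara was between 45.3 and 48.9 CPM in SYT and between 44.2 and 47.9 in YJT, and at most 34.9 in YJZYT. Its log2 fold change was -0.57 in YJZYT against SYT (SE 0.14, edgeR adjusted p = 0.320; 0.00836 with DESeq2) and -0.55 in YJZYT against YJT (SE 0.14, edgeR adjusted p = 0.179; 0.00737 with DESeq2). Esrrg was at -2.70 (SE 0.85, edgeR adjusted p = 0.409; 0.0462 with DESeq2) and -3.19 (SE 0.86, edgeR adjusted p = 0.218; 0.0053 with DESeq2) in the same 2 contrasts, which share the YJZYT libraries. In the test of any difference, 5 members had an unadjusted p under 0.05 (16.1%, against 7.71% of all genes), with Rara smallest (edgeR adjusted p = 0.213), then Nr4a3 (edgeR adjusted p = 0.327), Esrrg (0.434), Rxrg (0.454) and Nr3c2 (0.625).

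Leaving out 1 library of the groups compared moved the size of these fold changes. No sign turned for members with an unadjusted p under 0.05 or with the 3 smallest p in a contrast with Model. For Nr2c1, Rxrg and Vdr in YJZYT against Model the range is not given. In Model against Blank the fold changes ran from -4.22 to -2.61 for Rxrg, -3.93 to -2.88 for Nr4a3 and -3.40 to -1.82 for Esrrg. They ran from -1.64 to -0.85 for Nr3c2 and 0.28 to 0.50 for Rara. In SYT against Model Esrrg ran from 1.45 to 3.02 and Rxrg from 1.18 to 2.79, and in YJT against Model Esrrg ran from 1.76 to 3.51 and Rxrg from 1.77 to 3.39. Nr4a2, at -1.01 in YJZYT against SYT, rested most on a single library: it ran from -1.37 to -0.32, with the smallest size without SYT3. Nr4a3 in YJZYT against YJT was at -1.75 without YJT1, and without YJZYT1 the remaining YJZYT libraries were at 0 and 0.0666 CPM. Rara was steadier, from -0.64 to -0.46 in YJZYT against SYT and from -0.62 to -0.44 in YJZYT against YJT.

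Side by side, Rara was at 26.8 to 34.9 CPM in Blank and YJZYT, 36.6 to 45.4 in Model and 44.2 to 48.9 in SYT and YJT. Esrrg was at least 1.11 CPM in every Blank, SYT and YJT library and at most 0.757 in every Model and YJZYT library. Rxrg was at least 0.697 and at most 0.660 CPM in the same libraries, a separation that rests on the scaling: in FPKM SYT1 (0.227) lay below Model1 (0.294). The share of all genes that split the libraries in these ways was not counted, so how common such splits are is not known. The promoters of Rara, Rxrg and Esrrg, and of Vdr as the most variable abundant member, are shown because the group comparisons turn on these genes. Each is the 250 bases before an annotated start in RefSeq (GRCr8), 5′ to 3′ on the gene's strand. Capitals mark the nuclear receptor half-site AGGTCA and the GC box GGGCGG, searched on both strands, whose matches do not overlap.
Vdr, chr7:130916758-130917007, minus strand: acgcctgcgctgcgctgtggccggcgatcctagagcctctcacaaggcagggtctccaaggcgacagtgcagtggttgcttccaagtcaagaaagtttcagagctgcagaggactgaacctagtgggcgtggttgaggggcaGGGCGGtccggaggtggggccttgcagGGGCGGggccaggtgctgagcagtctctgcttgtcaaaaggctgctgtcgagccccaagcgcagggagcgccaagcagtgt
Rara, chr10:84411217-84411466, plus strand: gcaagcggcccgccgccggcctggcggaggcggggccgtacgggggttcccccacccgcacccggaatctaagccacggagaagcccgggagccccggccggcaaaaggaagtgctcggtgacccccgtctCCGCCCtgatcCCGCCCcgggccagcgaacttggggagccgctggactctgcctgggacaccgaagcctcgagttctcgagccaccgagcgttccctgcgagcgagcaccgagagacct
Rxrg, chr13:82276237-82276486, plus strand: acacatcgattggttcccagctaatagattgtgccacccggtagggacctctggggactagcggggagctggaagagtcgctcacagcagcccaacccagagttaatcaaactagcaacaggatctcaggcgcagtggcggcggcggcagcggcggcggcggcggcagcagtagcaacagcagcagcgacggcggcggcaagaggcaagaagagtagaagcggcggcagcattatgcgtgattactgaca
Esrrg, chr13:101755510-101755759, plus strand: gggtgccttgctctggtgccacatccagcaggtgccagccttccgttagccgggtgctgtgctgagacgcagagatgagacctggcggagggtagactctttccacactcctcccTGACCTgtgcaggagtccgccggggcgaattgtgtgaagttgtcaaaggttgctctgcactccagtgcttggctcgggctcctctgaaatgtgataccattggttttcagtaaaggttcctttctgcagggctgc

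The tables of RefSeq held windows of 300 bases (250 before and 50 after a start) for 30 of the 35 members, 37 windows in all. AGGTCA was in 3 of the 37 (8.11%), those of Esrrg, Nr5a2 and Rarg, and in 16.2% of 33469 windows of all genes. GGGCGG was in 19 of the 37 (51.4%) and in 33.1% of all windows. In the sequences shown, the Vdr and Rara windows hold GC boxes and the Rxrg window holds neither motif. The Esrrg window shown, 1 of 4 for that gene, is the only one of them with a half-site, read on the opposite strand. Other Esrrg windows, not shown, hold GC boxes. The deposited table's coordinates have a build not given in the sources used here, so they were not joined to these windows.

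How members varied with tissue makeup inside the groups was read from a slope, the change in log2 CPM per unit of a marker score with group in the model. On the osteoblast and osteocyte score, 4 members had a positive slope past the adjusted threshold (12.9%, against 10.5% of all genes) and 0 a negative one (against 3.81%). Vdr, whose ligand raises osteocalcin in osteoblasts, had the steepest, 1.05 (SE 0.11, edgeR adjusted p = 3.32e-05). Thrb, the second thyroid hormone receptor, was at 0.59 (SE 0.14, edgeR adjusted p = 0.0161), Nr2f6, an orphan receptor that represses transcription, at 0.31 (SE 0.08, 0.0161) and Nr4a2, an immediate early orphan receptor, at 0.44 (SE 0.11, 0.0213).

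Levels of Vdr were 48.9, 123 and 77.3 CPM in Blank, 62.8, 66.1 and 90.03 in Model, 32.7, 55.02 and 222 in SYT, 89.3, 28.7 and 12 in YJT, and 64.95, 42.3 and 12.2 in YJZYT. These Vdr values followed the score library by library, with SYT3 highest and YJT3 and YJZYT3 lowest in both. Without YJT3 and YJZYT3 the Vdr slope was 1.26 (edgeR adjusted p = 0.00357), and it ran from 0.97 to 1.16 when 1 library was left out, past the threshold each time. The libraries had Thrb at 8.04, 12.2 and 10.9 CPM in Blank, 11.2, 5.56 and 11.8 in Model, 5.096, 11.8 and 13.2 in SYT, 12.7, 4.78 and 3.995 in YJT, and 9.21, 5.15 and 2.01 in YJZYT. Thrb lost the threshold without YJT1 (edgeR adjusted p = 0.0931), without YJZYT3 (0.074) and without both YJT3 and YJZYT3 (0.192). Nr2f6 was at 8.64, 13.5 and 13.5 CPM in Blank, 13.96, 19.1 and 22.02 in Model, 18, 12.5 and 23.5 in SYT, 20.1, 15.01 and 9.57 in YJT, and 14.3, 11.1 and 11.7 in YJZYT. Nr2f6 lost it without SYT3 (0.056), YJT1 (0.0746) or YJT3 (0.102). Levels of Nr4a2 were 3.39, 6.45 and 5.48 CPM in Blank, 3.72, 4.62 and 4.34 in Model, 2.86, 4.07 and 9.82 in SYT, 3.85, 3.38 and 2.81 in YJT, and 3.98, 2.64 and 1.68 in YJZYT. Nr4a2 lost it without SYT3 (0.0819), YJZYT1 (0.0587) or YJZYT3 (0.0775). The 13 markers of the score include Bglap and Spp1, which are also known targets of the vitamin D receptor.

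**Figure D4:**
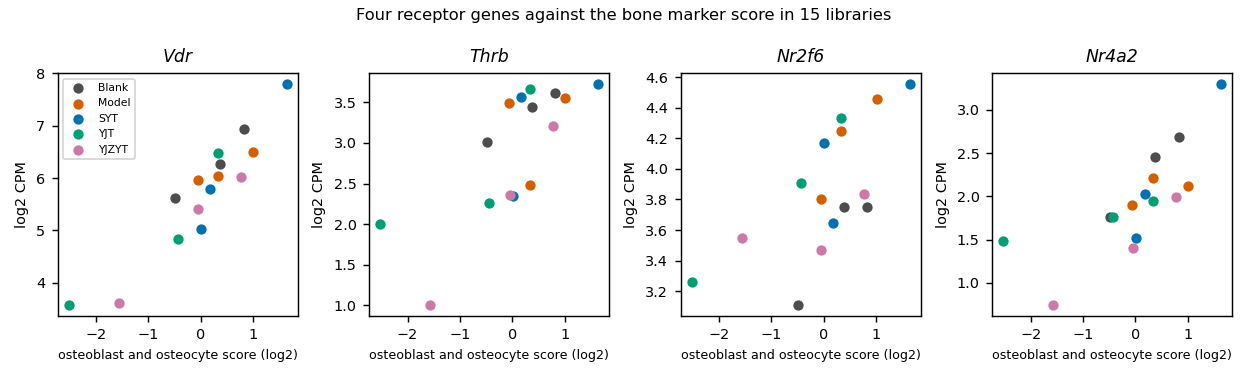
Log2 CPM of Vdr, Thrb, Nr2f6 and Nr4a2 against the osteoblast and osteocyte score, with 1 point per library coloured by group. Vdr rises almost on a line from YJT3 and YJZYT3 at the lower left to SYT3 at the upper right, and the other 3 scatter more.

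On the neutrophil score 3 members had a negative slope past the threshold (9.68%, against 4.13% of all genes) and 0 a positive one (against 4.6%): Nr2f2 at -0.64 (SE 0.11, edgeR adjusted p = 0.00577), Vdr at -0.95 (SE 0.24, 0.0295) and Nr4a2 at -0.51 (SE 0.13, 0.0349). Nr2f2, also called COUP-TFII, is a factor of veins and mesenchymal cells. The libraries had Nr2f2 at 7.66, 5.03 and 7.91 CPM in Blank, 3.399, 2.39 and 5.31 in Model, 2.07, 4.83 and 8.56 in SYT, 4.88, 2.87 and 3.29 in YJT, and 3.86, 3.21 and 2.11 in YJZYT. SYT3, with the lowest neutrophil score (-2.25), had the highest Nr2f2, and none of the 3 slopes stayed past the threshold without SYT1 or without SYT3 (edgeR adjusted p = 0.0711 and 0.0969 for Nr2f2, 0.0811 and 0.25 for Vdr, 0.139 and 0.455 for Nr4a2). Without YJZYT3, Vdr (0.0574) and Nr4a2 (0.0741) were lost as well. Nr4a2 was also lost without YJT1 (0.0519) and without both YJT3 and YJZYT3 (0.0902). The neutrophil score ran partly opposite to the osteoblast and osteocyte score. SYT3 was highest in the bone score (1.646), and YJT3 and YJZYT3, lowest there, had neutrophil scores of 0.817 and 0.866. Within Blank, though, Blank2 was highest in both (0.826 and 0.195). Whether the Vdr and Nr4a2 slopes on these 2 scores are separate was not tested.

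The erythroid score gave 1 negative member, Nr2f6 at -0.39 (SE 0.10, edgeR adjusted p = 0.0423; 3.23%, against 1.61% of all genes), and 0 positive (against 5.27%). Its adjusted p lay between 0.059 and 0.126 when any of Blank1, Blank2, Model1, SYT2, SYT3, YJT1, YJZYT1, YJZYT2 or YJZYT3 was left out. On the muscle score 0 members passed (against 0.447% of all genes), the smallest p being that of Rarg (slope 0.15, SE 0.05, edgeR adjusted p = 0.392), with 3 members at an unadjusted p under 0.05 (9.68%, against 10.3% of all genes). Without the group in the model 4 passed (12.9%, against 3.72% of all genes), Nr4a3 at 0.99 (edgeR adjusted p = 0.0031), Rxrg at 0.62 (0.00628), Esrrg at 0.60 (0.017) and Ppard at 0.14 (0.0478). The muscle score differed between groups (1.708 to 2.392 in Blank, -2.424 to -0.735 in Model), so slopes without the group also hold group differences. With the group, the edgeR adjusted p was 0.462 for Nr4a3, 0.521 for Rxrg, 0.581 for Esrrg and 0.406 for Ppard. The adipocyte score gave 0 members (against 0.0113%), and 6 at an unadjusted p under 0.05 (19.4%, against 13.2%), with Esrrg nearest (1.17, SE 0.34, edgeR adjusted p = 0.243). The B cell score gave 0 (against 0.119%), and 3 at an unadjusted p under 0.05 (9.68%, against 10.9%), with Rarb nearest (1.48, SE 0.46, edgeR adjusted p = 0.342).

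Genes around the receptors were read from lists, with 0 genes past the adjusted threshold in any of the 10 lists in Model against Blank. Among the nuclear receptors outside the members, Nr4a1, the sister of Nr4a3, had a log2 fold change of -1.78 (SE 0.37, edgeR adjusted p = 0.246). Of 12 coactivators 1 passed the unadjusted threshold on the high side, Crebbp (0.44, SE 0.16, edgeR adjusted p = 0.470), an acetyltransferase; Ppargc1a, a partner of the oestrogen-related receptors, was at -1.56 (0.759) and Ncoa7 at -0.36 (0.804). Of 9 corepressors 0 passed the unadjusted threshold, with Nrip1 at -0.38 (0.679), Tbl1xr1 at 0.16 (0.907) and Ncor1 at -0.22 (0.908).

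Of 14 genes of glucocorticoid handling and response 6 were lower in Model against Blank at an unadjusted p under 0.05 and 0 higher, against 4.23% and 3.96% of all genes. Per1, a clock gene with a glucocorticoid response element, went from 65.3 ± 10.1 to 17.9 ± 4.59 CPM (SD, n = 3; log2 fold change -1.87, SE 0.37, edgeR adjusted p = 0.196). Tsc22d3, which encodes the glucocorticoid-induced leucine zipper, was at -0.92 (SE 0.24, 0.307), and Errfi1, a feedback inhibitor of EGF receptor signalling, at -1.82 (SE 0.50, 0.309). The median of the list was -0.39, against 0.23 for Nr3c1 itself. By sign, 8 of the 14 were below 0. In the other contrasts with Model the unadjusted threshold was passed by 2 of the 14 on the low side in SYT (against 1.18% of all genes), 2 on the low side (2.46%) and 1 on the high side (4.12%) in YJT, and 3 on the low side in YJZYT (2.85%).

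Lists of lipid and energy genes differed in direction in Model against Blank. Of 11 genes known to respond to fatty acid receptors 9 had a fold change below 0, of which 6 passed the unadjusted threshold (against 4.23% of all genes), led by Ucp3, a mitochondrial carrier of muscle (-3.09, SE 0.58, edgeR adjusted p = 0.196), Fabp4, the fatty acid carrier of fat cells (-1.95, SE 0.39, 0.198), and Acadm, an enzyme of fatty acid oxidation (-0.65, SE 0.15, 0.282). Of 11 genes known to respond to oestrogen-related receptors all 11 had a fold change below 0 (median -0.47), of which 9 passed the unadjusted threshold, with Acadm again, Cox5b, a subunit of respiratory complex IV (-0.51, SE 0.15, 0.378), and Ckmt2, the muscle mitochondrial creatine kinase (-2.60, SE 0.85, 0.407). Several of these genes are abundant in muscle or fat, whose markers moved the same way in this contrast; their part was not tested. Of 10 oxysterol receptor targets 6 had a fold change below 0 and 4 above (median -0.02), and 1 passed the unadjusted threshold, Lpl (-1.24, SE 0.39, 0.391), a lipase also among the fat markers, with Srebf1 at -0.36 (0.725) and Lpcat3 at -0.44 (0.804).

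Among hormone handling genes, 11 of 15 retinoid genes had a fold change below 0 in Model against Blank, of which 2 passed the unadjusted threshold, Aldh1a1, which makes retinoic acid (-2.41, SE 0.52, edgeR adjusted p = 0.246), and Rdh10, the enzyme before it (-0.43, SE 0.14, 0.405). Cyp26c1, which breaks retinoic acid down (0.756), was at most 0.341 FPKM in any library, so no fold change is given. Of 6 thyroid hormone genes 5 had a fold change below 0, of which 1 passed the unadjusted threshold, Dio2, which makes the active hormone (-1.65, SE 0.62, 0.479), with Thrsp at -1.65 (0.703). None of 8 vitamin D genes passed the unadjusted threshold (edgeR adjusted p = 0.814 for Cyp27a1 at -0.50, 0.908 for Trpv6 at 0.57, and 0.847 for Gc, which was at most 0.265 FPKM). In SYT against Model, 13 of 15 retinoid genes, 11 of 11 fatty acid receptor targets and 11 of 11 oestrogen-related receptor targets were on the high side, of which 1, 4 and 3 passed the unadjusted threshold (against 1.98% of all genes). In YJT against Model these were 13, 9 and 10, of which 1, 5 and 3 passed (against 4.12%), and in YJZYT against Model 2, 1 and 6, of which 0, 0 and 2 passed (against 4.44%). Over all genes 46.7%, 51.8% and 57.6% were below 0 in SYT, YJT and YJZYT against Model. Without scaling factors the high side held 10, 7 and 6 of the listed genes in SYT, 10, 9 and 8 in YJT and 2, 1 and 3 in YJZYT, so the direction of the oestrogen-related receptor targets in YJZYT turned with the scaling. All genes moved down with it too, with 74.6%, 65.2% and 71.2% below 0 in SYT, YJT and YJZYT.

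**Figure D5:**
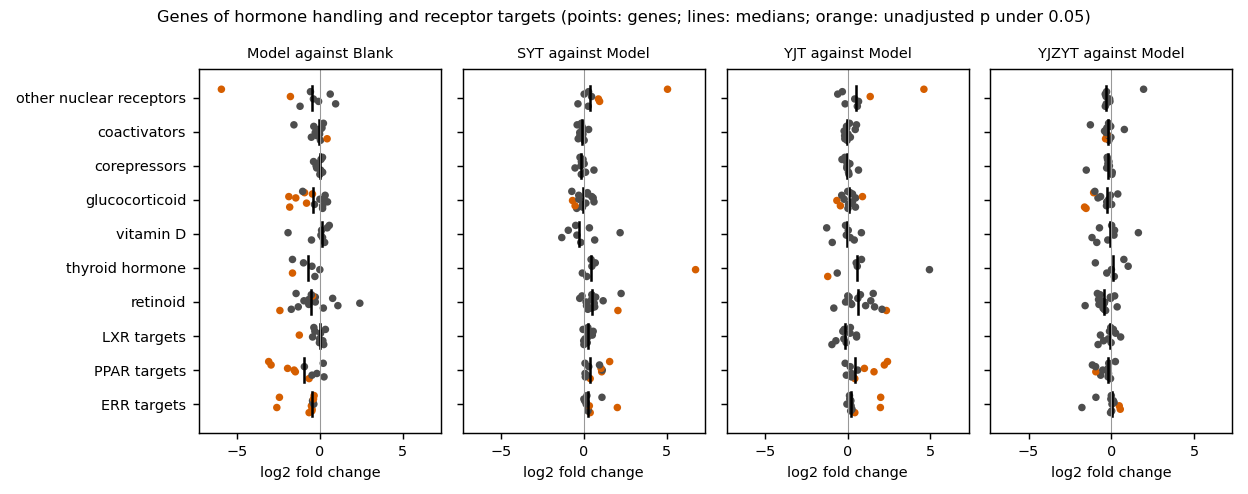
Log2 fold changes of the genes of 10 lists (points), with list medians (lines), in the 4 contrasts with Model; orange points have an unadjusted p under 0.05. In Model against Blank 9 of 11 fatty acid receptor (PPAR) targets and 11 of 11 oestrogen-related receptor (ERR) targets lie left of 0. Both lists lie mostly right of 0 in SYT and YJT against Model, less so without scaling factors.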

How the data were processed

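Per the labels' protocols, poly(A) RNA was taken with oligo(dT) beads from Trizol extracts and made into dUTP-marked, strand-specific libraries with unique molecular identifiers, read as Illumina read pairs. The submitters' processing notes list these tools: cutadapt (version 1.9), HISAT2 (2.0.4), UMI-tools, StringTie (1.3.4d), and both DESeq2 and edgeR. Genome build, counting step and strand setting: not given in the sources used here. Paralogues and overlapping genes may therefore share reads. The deposited table gives, for each gene and library, a raw read count that is a whole number. Beside it stands an FPKM value computed by the authors, per the file headers. FPKM, being per length, was used to order genes.

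Counts were tested with edgeR 4.0.16 (R 4.3.3). The low-count filter filterByExpr kept 17657 genes and dropped 4811. TMM scaling was followed by a single robust quasi-likelihood fit on all 15 libraries (10 residual degrees of freedom), with 7 contrasts and 1 test of any difference, two-sided, Benjamini-Hochberg adjusted over the genes kept. The SE is the fold change divided by the root of F. Slopes added 1 of 6 marker scores (median log2 CPM deviation, prior count 2) to the groups. The fits were tested on simulated data.

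Alternatives were RLE factors, no low-count filter, a mean of at least 1 FPKM in some group, DESeq2 1.42.0 (on all genes, with its own independent filter), limma 3.58.1 on log2(FPKM + 1) and log2(FPKM + 0.1), a replicate block, only the groups compared, the muscle and osteoblast scores as covariates, no group term, a mean score, unadjusted p, libraries left out and, chosen after seeing the data, no scaling factors. The members and all lists were chosen with earlier results of these data known. By rule, values were given for the 3 members with the smallest p in the test of any difference and in each of the 4 contrasts with Model, for 10 key receptors (levels), for up to 4 members per score past the threshold or else the 1 with the smallest p, and for up to 3 genes per list with the smallest p in Model against Blank. Members named because they passed an unadjusted p, did not overlap or passed in DESeq2 were chosen after their values were seen. Some genes that this rule selects are not reported here.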

Additional observations from a re-analysis of the deposited data

How the results depend on the processing

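In the 8 tests across groups edgeR called 0 members under RLE factors, both other filters, the replicate block, the score covariates, the fit without YJT3 and YJZYT3, no scaling factors, and with any single library left out (0 to 0), and 0 in the 7 contrasts with only the groups compared. DESeq2 called 1 member in Model against Blank, 2 in YJZYT against SYT, 2 in YJZYT against YJT and 4 for any difference. At an unadjusted p under 0.05 there were 5 of 31 members in Model against Blank, against 1446 of 17657 genes. There was 1 in SYT (against 558 genes), 2 in YJT (1162) and 2 in YJZYT (1287) against Model. There were 4 in YJZYT against SYT (1607), 5 in YJZYT against YJT (1128) and 5 for any difference (1361). For the slopes there were 3 for muscle (9.68%, against 10.3% of all genes), 8 for osteoblast (25.8%, against 28.5%), 6 for adipocyte (19.4%, against 13.2%), 8 for erythroid (25.8%, against 23.4%), 6 for neutrophil (19.4%, against 25.7%) and 3 for B cell (9.68%, against 10.9%). Without the group term 4 members passed for muscle, against 657 of 17657 genes, and 4 for erythroid, against 2650 genes. Slopes without that term also hold differences between groups. The osteoblast count was 2 with limma on log2(FPKM + 1), against 2160 genes. The erythroid count was 2 with RLE factors, against 1235 genes, and 0 without a low-count filter, against 1077 genes. Leaving out 1 library gave 0 to 1 members for muscle, 2 to 5 for osteoblast, 0 to 3 for erythroid, 0 to 4 for neutrophil, and 0 to 0 for both adipocyte and B cell. The cause of these shifts was not tested. The number of members below 0 ran from 17 to 23 in Model against Blank and from 23 to 30 in YJZYT against Model when 1 library was left out.

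Without scaling factors, members above 0 in SYT against Model went from 21 to 11 of 31, and in YJT against Model from 16 to 8, while their medians beyond that of all genes were 0.08 and 0.01. Over all genes edgeR called 4 in Model against Blank, 4 for any difference and 0 in each other contrast. DESeq2 called 300 in Model against Blank, 28, 97 and 63 in SYT, YJT and YJZYT against Model, 8 in YJT against SYT, 280 and 398 in YJZYT against SYT and YJT, and 616 for any difference. Limma on log2(FPKM + 1) called 41, 101 and 119 genes in Model against Blank, YJZYT against YJT and any difference, and 2, 3 and 12 on log2(FPKM + 0.1). With only the groups compared, Model against Blank had 8. Leaving out 1 library gave 0 to 5 in Model against Blank and 0 to 74 in YJZYT against YJT, the 74 without YJZYT1. For the slopes it gave 31 to 534 genes for muscle (79 with all libraries), 1530 to 2865 for osteoblast (2522), 701 to 1614 for erythroid (1214), 107 to 1851 for neutrophil (1542), 0 to 88 for B cell (21) and 0 to 15 for adipocyte (2). Without the group term 657 genes passed for muscle. Limma called 27 for muscle and 8 for B cell.

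The groups share replicate numbers, but libraries with the same number correlated over 0.1 in only 9 of 30 pairs (-0.42 to 0.40), so the numbers were not taken to pair samples. With the replicate block 0 members passed for erythroid, against 1538 of 17657 genes, and 5 for neutrophil, against 2283 genes. Over all genes the block left 0 in Model against Blank, 0 for any difference, 42 for muscle and 0 for B cell. Receptors under 0.1 FPKM rest on few counts per library, which limits their precision.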
